A study of Homo sapiens with 6 samples.

Results

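The nuclear genes for subunits and assembly factors of respiratory chain complexes II, III and IV and of ATP synthase, complex V, were followed after depletion of MEX3A. The 54 genes were taken by symbol from the 42656 rows of the count table and comprise 8 genes of complex II, 12 of complex III with cytochrome c, 17 of complex IV and 17 of complex V. Of these, 39 encode subunits or cytochrome c and 15 encode assembly factors. All 54 had a row and passed the filter on low counts. Messenger RNA was sequenced from TOV21G, an established line of ovarian clear cell carcinoma, and the series' title ties MEX3A in this tumour to mitochondrial fitness. The cells are labelled wild type, grew in medium holding 15% fetal bovine serum, and all received a lentiviral short hairpin RNA at a multiplicity of infection of 50 and were collected on day 3. In the shCtrl arm the hairpin was scrambled and in the shMEX3A arm it targeted MEX3A, an RNA-binding protein. Each arm had 3 libraries and 1 hairpin in 1 cell line, so an effect of MEX3A loss and an off-target effect of that hairpin cannot be told apart. The labels do not say if the libraries of an arm stem from independent cultures; the tests therefore rest on a spread that may be technical.

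Complex II (succinate dehydrogenase) passes electrons from succinate to ubiquinone, complex III (the cytochrome bc1 complex) passes them to cytochrome c, and complex IV (cytochrome c oxidase) passes them to oxygen. Complexes III and IV pump protons, and complex V uses the returning protons to turn a rotor of c subunits and a central stalk inside the F1 head, where ATP is made. Complex II is built from nuclear genes alone, whereas complexes III, IV and V also take core subunits from the mitochondrial genome. Nuclear respiratory factor 1 (NRF1), the ETS factor GABP and YY1 are known activators of many of the nuclear genes.

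Library totals ran from 34662635 to 48228216 counts. MEX3A, the label check, averaged 69.0 CPM in shCtrl (counts per 1e+06, scaled by TMM; SD 1.54, n = 3) against 20.9 CPM in shMEX3A (SD 1.31, n = 3; log2 fold change -1.72), and no library of either arm lay within the range of the other. Of the markers of the labelled cell type, PAX8, KRT8 and KRT18 were at 157 CPM or more in every library, and rose in shMEX3A by 0.61, 0.55 and 0.71 on the log2 scale. Markers of other cells were low, and 2 of 8 leukocyte, 2 of 6 fibroblast and 2 of 6 endothelial genes passed the low-count filter. Of these, CD68, ITGAM, DCN and CDH5 were called higher in shMEX3A, by 0.27, 1.60, 0.90 and 3.29 on the log2 scale. PECAM1 and THY1 were not called (-0.79 and 0.20). CDH5 was near the floor, at a mean of 0.0424 CPM in shCtrl and 0.432 CPM in shMEX3A. Over all genes tested, 34.0% were higher. The summed levels ran from 7.75 to 8.91 CPM in shCtrl and from 10.7 to 11.2 CPM in shMEX3A for 8 leukocyte genes, of which CD3E had 0 counts throughout, and from 5.54 to 5.81 and from 9.002 to 11.2 CPM for 6 fibroblast genes. For 6 endothelial genes the sums ran from 0.595 to 0.723 CPM in shCtrl and from 0.679 to 0.993 CPM in shMEX3A, with KDR and CLDN5 at 0 counts. Their part in the results was not tested.

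Because ATP5F1C and SDHD had the largest falls of the 54 genes, and SDHAF3 and SDHAF4, partners in complex II assembly, moved in opposite directions, the 250 bases upstream of their RefSeq start sites (GRCh38.p14, 5′ to 3′ on the gene's strand, which is plus for all 4) are shown. Capitals mark matches on either strand to an NRF1 motif, GCGCANGCG, or an ETS motif, CCGGAAG. These 4 genes were chosen after their values were seen.
ATP5F1C, chr10:7787927-7788176: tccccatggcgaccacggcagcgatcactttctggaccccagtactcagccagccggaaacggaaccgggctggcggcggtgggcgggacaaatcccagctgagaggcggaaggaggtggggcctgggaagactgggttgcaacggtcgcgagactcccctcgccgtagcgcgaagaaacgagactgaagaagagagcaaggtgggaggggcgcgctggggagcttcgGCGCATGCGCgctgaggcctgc
SDHD, chr11:112086623-112086872: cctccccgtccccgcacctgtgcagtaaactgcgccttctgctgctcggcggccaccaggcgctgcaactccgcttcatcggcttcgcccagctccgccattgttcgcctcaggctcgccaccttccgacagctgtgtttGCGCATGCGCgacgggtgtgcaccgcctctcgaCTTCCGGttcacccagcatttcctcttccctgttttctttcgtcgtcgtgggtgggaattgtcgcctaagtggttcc
SDHAF3, chr7:97117448-97117697: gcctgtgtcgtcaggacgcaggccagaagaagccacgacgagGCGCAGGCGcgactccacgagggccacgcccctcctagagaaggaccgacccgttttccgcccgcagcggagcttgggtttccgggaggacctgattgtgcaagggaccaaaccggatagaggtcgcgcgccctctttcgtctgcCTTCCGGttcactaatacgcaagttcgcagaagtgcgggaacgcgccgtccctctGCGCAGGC
SDHAF4, chr6:70566680-70566929: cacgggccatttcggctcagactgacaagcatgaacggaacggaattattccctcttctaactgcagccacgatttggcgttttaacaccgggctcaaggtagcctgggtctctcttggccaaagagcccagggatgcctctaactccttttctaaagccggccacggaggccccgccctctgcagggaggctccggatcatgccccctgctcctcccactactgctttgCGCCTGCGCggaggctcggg
ATP5F1C had overlapping NRF1 matches on a palindromic core, starting 22 and 21 bases before the start site. SDHD had the same palindromic core, with matches starting 110 and 109 bases before the start, and an ETS match starting 77 bases before it. SDHAF3 had NRF1 matches at 208 and 8 bases and an ETS match at 63 bases before the start, and the last base of the match at 8 lies past the printed end. In SDHAF4 a single NRF1 match began 20 bases before the start. A match is a description of the letters and not evidence of binding.

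Across the 54 genes, 32 fell in shMEX3A (59.3%), 7 rose (13.0%) and 15 were not called by edgeR's quasi-likelihood test at an adjusted p of 0.05. Among all 15679 genes tested, 35.6% were called lower and 34.0% higher. The median log2 fold change was -0.14 over the 54 genes and -0.01 over all genes tested. Most falls were small. Of the 32, 18 fell by less than 20% and 14 by at least 20%, and only ATP5F1C, SDHD and CYCS fell by at least 2-fold. The groups did not overlap for 37 of the 54 genes, against 72.3% of all genes tested. The called genes with overlapping groups were 4 (COX6B1, COX6C, ATP5MF and ATPAF2), and UQCRC2 and COX10 had separate groups without a call. In the 6 fits that each left out 1 library, 21 of the 32 lower calls held throughout. The library shCtrl replicate 1 was the highest of its arm for 35 of the 54 genes (64.8%, against 35.3% of all genes tested), and without it 27 genes were lower and 7 higher. Fewer cells of a kind and less RNA per cell cannot be told apart in these bulk libraries.

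Counts differed by role. Of the 39 genes for subunits and cytochrome c, 25 fell (64.1%) and 2 rose (5.13%), with a median log2 fold change of -0.16. Of the 15 assembly factors, 7 fell (46.7%) and 5 rose (33.3%), with a median of -0.08. The shares for assembly factors were the closer to those of all genes tested, 35.6% lower and 34.0% higher. With offsets for GC content and transcript length, described next, 18 subunit genes were lower and 7 higher (median -0.10), and 6 assembly factors were lower and 7 higher (median 0.02). In that fit 36.0% of all genes were lower and 37.0% higher. The difference between subunits and assembly factors was not tested. The summed level of the 54 mRNAs averaged 7069 CPM in the shCtrl arm (SD 205, n = 3) and 6405 CPM in the shMEX3A arm (SD 39.0, n = 3), a ratio of 0.906, and the lowest shCtrl sum, 6875 CPM, was above the highest shMEX3A sum, 6434 CPM. By complex the ratios of the sums were close to each other, at 0.909 for complex II, 0.916 for III, 0.923 for IV and 0.892 for V. The mRNAs with the most counts weigh most in such sums. The median log2 fold changes differed more, at -0.03 for complex II, -0.16 for III, -0.12 for IV and -0.16 for V.

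Adjustment for GC content and transcript length changed the split. With both as offsets, fitted on the 14144 tested genes with a value, 24 of the 54 genes were lower and 14 higher, where 36.0% and 37.0% of all genes in that fit were lower and higher, and the median log2 fold change was -0.09. Of the 32 genes that fell, 23 stayed lower with the offsets, 7 lost the call, and COX11 and ATP5PB turned to a higher call. Of the 15 genes not called, SDHB, UQCRC2, COX4I1, COX7A2, ATP5PO and ATPAF1 were called higher with the offsets and ATP5F1D lower. Without offsets the same 14144 genes gave 26 lower and 7 higher, a fit chosen after seeing the data. The number of lower calls was thus already below 32 in the smaller gene set before any offset, whereas the higher calls stayed at 7. Fold change and GC content correlated with Spearman's rho of 0.23 across the 54 genes and 0.20 across the 14144 genes. For fold change and transcript length rho was 0.14 and 0.09. These are descriptions only, since genes of the same libraries are not independent. Median GC content was 48.3% in the 54 genes and 49.5% in the 14144 genes, and median transcript length was 851.5 and 2470 bases.

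**Figure D1:**
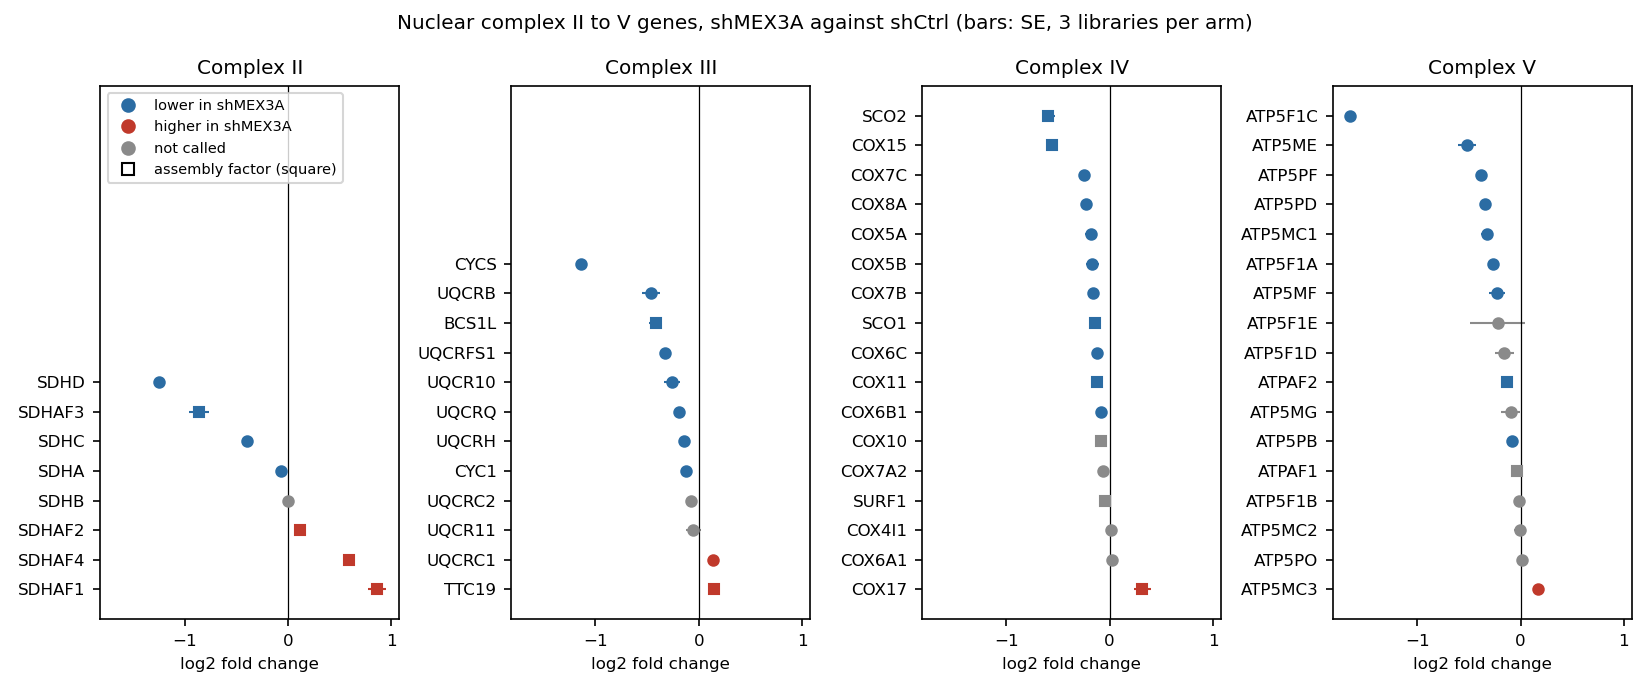
Log2 fold change of shMEX3A against shCtrl (x axis) for each of the 54 genes (y axis), in a panel per complex. Bars are standard errors from edgeR with 3 libraries per arm, squares are assembly factors, and colours give the call. ATP5F1C, SDHD and CYCS lie farthest to the left, and SDHAF1 and SDHAF4 farthest to the right.

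RefSeq held a promoter entry of 300 bases for 44 of the 54 genes. The NRF1 motif was in 15 of the 44 (34.1%) and in 7.52% of all 35116 promoter entries. The ETS motif was in 22 of 44 (50.0%) and in 10.3% of all entries, and a YY1 motif, AAGATGGCG, also sought on either strand, was in 5 of 44 (11.4%) and in 1.75% of all. In the sequences printed above, the NRF1 and ETS matches do not overlap each other, and none holds the YY1 motif. By response, the NRF1 motif was in 8 of 25 genes that fell, 3 of 6 that rose and 4 of 13 that were not called, and the ETS motif in 13 of 25, 2 of 6 and 7 of 13. The mRNAs of 8 regulators of such promoters were measured too, of which 5 fell and 2 rose, where 35.6% and 34.0% of all genes tested were lower and higher. YY1 mRNA fell by 1.10 on the log2 scale (SE 0.033, adjusted p = 5.98e-27, edgeR) and GABPA, the DNA-binding subunit of GABP, by 0.67 (SE 0.063, adjusted p = 5.06e-12, edgeR). GABPB1, the partner subunit, rose by 0.42 (SE 0.043, adjusted p = 6.87e-11, edgeR) and ESRRA, a nuclear receptor acting with the coactivators, by 0.36 (SE 0.038, adjusted p = 1.22e-10, edgeR). NRF1 mRNA itself fell by 0.31 (SE 0.056). PPARGC1A and PPARGC1B, the coactivators known for mitochondrial biogenesis, fell by 0.27 and 0.46, and PPRC1 was not called (log2 fold change 0.046). With the offsets PPARGC1A was at -0.10 and ESRRA at 0.21, GABPB1 was at 0.67, and PPRC1 was called lower, at -0.13 (adjusted p = 1.77e-04, edgeR).

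Complex II had 4 genes that fell (50.0%), 3 that rose (37.5%) and 1, SDHB, that was not called. Of all genes tested, 35.6% were lower and 34.0% higher. The membrane anchors fell. Of the 4 assembly factors 3 rose, SDHAF2 by only 0.11, while SDHAF3 fell by 0.86. The catalytic subunits changed little without the offsets. SDHD and SDHC are the anchors that hold the complex in the inner membrane and form its ubiquinone site. SDHD (GRCh38, GENCODE 29, chromosome 11 from 112086773 to 112120013 on the plus strand) held 48.8, 47.2 and 52.7 CPM in shCtrl replicates 1 to 3 and 22.4, 20.8 and 19.4 CPM in shMEX3A replicates 1 to 3. Every shMEX3A library was under the level of any shCtrl library by at least 24.8 CPM, and SDHD fell by 1.25 on the log2 scale (SE 0.053, adjusted p = 3.04e-21, edgeR). Exons of other genes, TIMM8B on the opposite strand among them, cover 12.2% of SDHD's exon bases. SDHC had 132, 134 and 143 CPM in shCtrl and 111, 99.7 and 99.8 CPM in shMEX3A. Its groups were also apart, and it fell by 0.40 (SE 0.040, adjusted p = 1.21e-09, edgeR), or by 0.24 with the offsets.

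SDHA, the flavoprotein that oxidises succinate, took the most counts of complex II, with 365, 352 and 348 CPM in shCtrl and 336, 343 and 339 CPM in shMEX3A. The groups did not overlap, yet the gap was narrow, and SDHA fell by 0.07 on the log2 scale (SE 0.030, adjusted p = 0.0450, edgeR), which is 4.50%. That call was lost in 5 of the 6 fits that left out 1 library, all but the fit without shCtrl replicate 3 (adjusted p up to 0.155 without shCtrl replicate 1, edgeR). The 4 pseudogene rows, SDHAP1 to SDHAP4, together held 9.60% as many counts as SDHA, and SDHAP1, SDHAP2 and SDHAP4 rose by 0.55, 0.51 and 0.84, so reads shared between them leave SDHA's small change uncertain. SDHB, the iron-sulphur subunit, was at 118 ± 2.62 CPM and 118 ± 2.71 CPM (SD, n = 3 each) and was not called (log2 fold change 0.004, SE 0.034). With the offsets SDHB was called higher, at 0.16 (adjusted p = 1.90e-05, edgeR), and SDHA stayed lower, at -0.10 (adjusted p = 0.00118, edgeR).

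The assembly factors of complex II gave the largest rises among the 54 genes. SDHAF1, a LYR-motif protein that helps insert iron-sulphur clusters into SDHB (chromosome 19 from 35995199 to 35996315 on the plus strand), held 5.65, 5.67 and 5.71 CPM in shCtrl and 10.6, 9.77 and 10.7 CPM in shMEX3A. The shCtrl libraries were nearly identical, all shMEX3A libraries were far above them, and SDHAF1 rose by 0.86 (SE 0.085, adjusted p = 1.64e-11, edgeR). SDHAF3 (chromosome 7 from 97116590 to 97181763 on the plus strand) is also a LYR-motif protein acting on SDHB. It went the other way, from 6.91, 7.19 and 6.93 CPM to 3.68, 3.89 and 4.01 CPM, with separate groups and a fall of 0.86 (SE 0.0995, adjusted p = 9.10e-10, edgeR). SDHAF4, which binds flavinylated SDHA before it joins SDHB (chromosome 6 from 70566917 to 70589569 on the plus strand), held 15.96, 15.4 and 15.8 CPM in shCtrl and 23.1, 24.7 and 22.95 CPM in shMEX3A. All shMEX3A libraries were higher, and the rise was 0.59 (SE 0.058, adjusted p = 2.35e-11, edgeR), or 0.83 with the offsets. SDHAF2, which aids the attachment of flavin to SDHA, was at 31.1, 32.4 and 32.2 CPM and 34.1, 34.5 and 34.8 CPM. These groups did not overlap, and the rise of 0.11 (SE 0.047, adjusted p = 0.0301, edgeR) was 0.23 with the offsets (adjusted p = 1.75e-05, edgeR). Without them it lost its call when shCtrl replicate 1, shMEX3A replicate 2 or shMEX3A replicate 3 was left out (adjusted p 0.109, 0.0628 and 0.0733, edgeR), and without the low-count filter. Exons of a neighbouring transcript cover 30.5% of its exon bases.

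Complex III and cytochrome c had 8 genes that fell (66.7%), 2 that rose (16.7%) and 2 that were not called. Among all genes tested, the shares were 35.6% lower and 34.0% higher. CYCS, cytochrome c, the soluble carrier between complexes III and IV and an activator of the apoptosome when released, led the falls (chromosome 7 from 25120091 to 25125361 on the minus strand). Its levels were 79.9, 74.3 and 83.3 CPM in shCtrl and 35.98, 35.1 and 37.2 CPM in shMEX3A. The arms were far apart, and CYCS fell by 1.14 (SE 0.043, adjusted p = 1.26e-23, edgeR), or by 0.87 with the offsets. No exon of another gene overlaps it.

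Among the subunits, UQCRB, a small subunit at the ubiquinone site, held 187, 155 and 160.2 CPM in shCtrl and 123, 127 and 116 CPM in shMEX3A. The shCtrl replicate 1 value was the highest by a margin, every shMEX3A library was below all shCtrl libraries, and UQCRB fell by 0.46 (SE 0.086, adjusted p = 0.00529, edgeR); with the offsets the fall was 0.19. UQCRFS1, the Rieske iron-sulphur protein, went from 102, 91.3 and 96.4 CPM to 77.6, 75.4 and 78.95 CPM, with separate groups and a fall of 0.32 (SE 0.039, adjusted p = 2.26e-09, edgeR). BCS1L, the AAA protein that moves the Rieske protein through the inner membrane, was at 16.9, 17.7 and 18.3 CPM and 12.5, 13.8 and 13.3 CPM. It fell by 0.42 (SE 0.065, adjusted p = 5.15e-07, edgeR), so the mRNAs for the Rieske protein and its translocase both fell.

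UQCRC1, a core subunit, took the most counts of complex III and rose. It held 383, 375 and 370.2 CPM in shCtrl and 413, 420.4 and 409.7 CPM in shMEX3A, groups that did not overlap, for a rise of 0.14 (SE 0.029, adjusted p = 6.07e-05, edgeR); with the offsets the difference was 0.03 and was not called (adjusted p = 0.24, edgeR). UQCRC2, the other core subunit, had a log2 fold change of -0.07 (SE 0.034) and was not called, but with the offsets it was called higher, at 0.12 (adjusted p = 7.25e-04, edgeR), and without the low-count filter lower, at -0.09 (adjusted p = 0.0389, edgeR). TTC19, which helps clear fragments of the Rieske protein, rose by 0.15 (SE 0.039, adjusted p = 0.00107, edgeR), from 74.99, 74.8 and 68.3 CPM to 80.03, 82.5 and 78.7 CPM, with no overlap. Of the other subunits, CYC1 (cytochrome c1), UQCRQ, UQCRH (the hinge protein) and UQCR10 fell by 0.12 to 0.26, and UQCR11 was not called (log2 fold change -0.05, SE 0.073). UQCR10 lost its call in 3 of 6 fits with 1 library left out, those without any of the shMEX3A libraries, and UQCRH and UQCR10 lost it with the offsets. UQCRH was at -0.08 without shCtrl replicate 1, and CYC1 at -0.19 with the offsets. The UQCRHL row, a retrocopy of UQCRH, held 15.7% as many counts as UQCRH, and reads of the copies may not be separable.

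**Figure D2:**
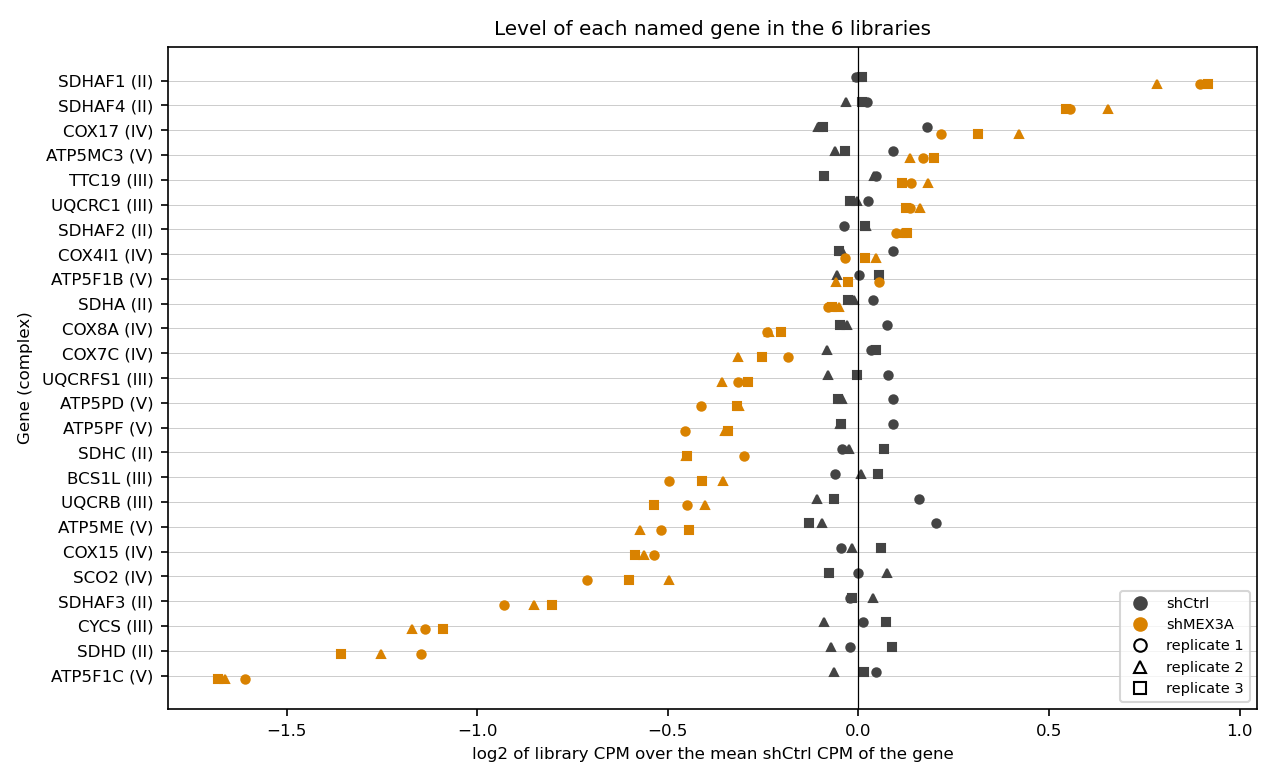
Level of 25 genes in each of the 6 libraries, as log2 of the library's CPM over the gene's mean shCtrl CPM (x axis); genes are on the y axis with their complex, grey marks are shCtrl, orange marks shMEX3A and the shape gives the replicate. For 23 of the 25 genes the arms are separate, and COX4I1 and ATP5F1B overlap.

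Complex IV had 11 genes that fell (64.7%), 1 that rose (5.88%) and 5 that were not called. Among all genes tested, the shares were 35.6% lower and 34.0% higher. The largest falls were in assembly factors for the copper and haem centres. SCO2, a copper chaperone for the COX2 subunit, held 22.3, 23.5 and 21.2 CPM in shCtrl and 13.6, 15.8 and 14.7 CPM in shMEX3A. Its arms were apart and it fell by 0.60 (SE 0.063, adjusted p = 1.28e-10, edgeR). Exons of a gene on the opposite strand cover 48.8% of SCO2's exon bases, and without the strand setting of the counting the reads cannot be told apart. COX15, which makes haem A from haem O, went from 122, 124 and 131 CPM to 86.5, 84.8 and 83.6 CPM. The lowest shCtrl library was above the highest shMEX3A library by 35.1 CPM, and COX15 fell by 0.56 (SE 0.035, adjusted p = 6.03e-17, edgeR). A further gene on the same strand shares 25.6% of its exon bases.

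COX17, the copper donor upstream of SCO1 and SCO2, was the only gene of complex IV that rose. It held 10.04, 8.24 and 8.31 CPM in shCtrl and 10.3, 11.9 and 11.01 CPM in shMEX3A. The arms were narrowly apart, with shCtrl replicate 1 close under the lowest shMEX3A library, and the rise was 0.32 (SE 0.083, adjusted p = 0.00104, edgeR), or 0.49 with the offsets. SCO1 and COX11, which also handle copper, fell by 0.14 and 0.12, and COX11 was 0.12 higher with the offsets. COX10, which makes haem O, and SURF1 were not called (log2 fold changes -0.08 and -0.04).

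The structural subunits of complex IV fell by little or not at all. COX7C, a small membrane subunit, went from 82.2, 75.9 and 83.1 CPM to 70.8, 64.6 and 67.4 CPM, and COX8A, another of these, from 117, 108 and 107 CPM to 93.8, 94.2 and 96.2 CPM. The arms were apart for both genes. COX7C fell by 0.25 (SE 0.040, adjusted p = 1.07e-06, edgeR) and COX8A by 0.23 (SE 0.036, adjusted p = 7.78e-07, edgeR); with the offsets COX7C was at 0.005 and not called, and COX8A had fallen by 0.33. An overlapping gene covers 34.5% of COX8A's exon bases. COX4I1, the largest nuclear subunit, took the most counts of complex IV, with 425, 387 and 385 CPM in shCtrl and 389, 412 and 403 CPM in shMEX3A. Its arms overlapped and it was not called (log2 fold change 0.01, SE 0.034). COX5A, COX5B, COX6B1, COX6C and COX7B fell by 0.08 to 0.18, and COX6A1 and COX7A2 were not called (0.02 and -0.06). With the offsets COX4I1 and COX7A2 were called higher, at 0.06 and 0.08. Of the 7 subunits that fell, 5 lost the call with the offsets. Without shMEX3A replicate 2 the number of complex IV genes called lower dropped from 11 to 7, with COX5A, COX5B, COX6B1 and COX11 no longer called. Without shCtrl replicate 1 the log2 fold changes of COX5A, COX5B and COX6B1 were -0.10, -0.09 and -0.03.

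Complex V had 9 genes that fell (52.9%), 1 that rose (5.88%) and 7 that were not called. Among all genes tested, the shares were 35.6% lower and 34.0% higher. The largest fall of all 54 genes was in ATP5F1C, the gamma subunit that forms the central stalk and turns inside the F1 head (chromosome 10 from 7788129 to 7807815 on the plus strand). It held 248, 229 and 242 CPM in shCtrl and 78.6, 75.8 and 74.7 CPM in shMEX3A. The libraries of each arm lay close together, the lowest shCtrl library was 150.8 CPM above the highest shMEX3A library, and ATP5F1C fell by 1.65 (SE 0.035, adjusted p = 6.55e-32, edgeR), a loss of 68.1%. Its log2 fold change was -1.40 with the offsets and -1.68 to -1.63 with a library left out, and no exon of another gene overlaps it.

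ATP5F1A and ATP5F1B, the alpha and beta subunits that alternate around gamma, changed far less. ATP5F1B, the beta subunit with the catalytic sites, took the most counts of all 54 genes, with 1141, 1098 and 1184 CPM in shCtrl and 1185, 1095 and 1119 CPM in shMEX3A. The arms overlapped over nearly their whole range and it was not called (log2 fold change -0.01, SE 0.032). ATP5F1A fell by 0.27 (SE 0.032), or by 0.15 with the offsets, from 674, 667 and 721 CPM to 589, 561 and 562 CPM, with no overlap. Per kilobase of transcript, the levels in shCtrl were 327 CPM per kb for alpha, 620.4 for beta and 214 for gamma, and in shMEX3A 271, 616 and 68.2. ATP5F1D (delta) was not called (-0.16, SE 0.090), but was called lower with the offsets, at -0.20 (adjusted p = 1.38e-04, edgeR), and without the low-count filter, at -0.17 (adjusted p = 1.71e-04, edgeR). ATP5F1E (epsilon) had 204 counts over all 6 libraries, 0.8996 ± 0.209 CPM in shCtrl, and its log2 fold change of -0.22 had an SE of 0.265, so a change of this size was not detectable at this depth. How reads shared with pseudogenes were counted is not given in the sources used here.

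In the peripheral stalk, which keeps the F1 head from turning, 3 of 4 genes fell, where 35.6% of all genes tested were lower. ATP5PF (factor 6) went from 64.5, 58.6 and 58.7 CPM to 44.2, 47.5 and 47.8 CPM and ATP5PD (subunit d) from 106, 96.7 and 95.9 CPM to 74.8, 80.1 and 79.9 CPM. All shMEX3A libraries were below all shCtrl libraries for both. ATP5PF fell by 0.38 (SE 0.043, adjusted p = 7.33e-10, edgeR) and ATP5PD by 0.35 (SE 0.040, adjusted p = 1.69e-09, edgeR), or by 0.24 and 0.18 with the offsets. Exons of GABPA on the opposite strand and of JAM2 cover 23.1% of ATP5PF's exon bases, and GABPA fell as well. ATP5PB fell by 0.08, a call lost in 3 of 6 fits with 1 library left out and turned to 0.11 higher with the offsets, and ATP5PO was not called (0.01). With the offsets ATP5PO was called higher, at 0.14 (adjusted p = 7.60e-04, edgeR), so that 2 of these 4 genes were lower and 2 higher.

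The c ring of the rotor is encoded by 3 genes whose mature proteins are identical, and these genes moved in different directions. ATP5MC3 held 198, 178 and 182 CPM in shCtrl and 209, 205 and 213 CPM in shMEX3A. The arms were apart, and it rose by 0.17 (SE 0.035, adjusted p = 7.03e-05, edgeR), or by 0.41 with the offsets. ATP5MC1 fell by 0.33 (SE 0.053, adjusted p = 9.18e-07, edgeR), from 32.02, 29.3 and 30.8 CPM to 25.2, 23.2 and 25.1 CPM, again without overlap, and ATP5MC2 was not called (-0.01). Per kilobase, ATP5MC1 was the lowest of the 3 in both arms, at 56.98 CPM per kb in shCtrl against 249.6 for ATP5MC2 and 221 for ATP5MC3.

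Of the small membrane subunits that help complex V form dimers, ATP5ME (subunit e) went from 37.96, 30.9 and 30.2 CPM to 23.03, 22.2 and 24.2 CPM. Its shCtrl replicate 1 was the highest library, the arms were apart, and ATP5ME fell by 0.52 (SE 0.083, adjusted p = 1.38e-04, edgeR). Exons of MYL5 on the opposite strand cover 61.6% of its exon bases, and reads of the pair cannot be told apart without the strand setting. ATP5MF (subunit f) fell by 0.23 (SE 0.076, adjusted p = 0.00812, edgeR) with overlapping arms, and lost its call in 3 of 6 fits with 1 library left out, with a log2 fold change of -0.14 without shCtrl replicate 1. ATP5MG (subunit g) was not called (-0.10). Of the chaperones of the F1 head, ATPAF2 fell by 0.13 (SE 0.056, adjusted p = 0.0362, edgeR), a call that held in 2 of 6 such fits and was lost at -0.07 without shCtrl replicate 1 and -0.08 without shMEX3A replicate 3, and ATPAF1 was not called (-0.03; called higher with the offsets, at 0.11).

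**Figure D3:**
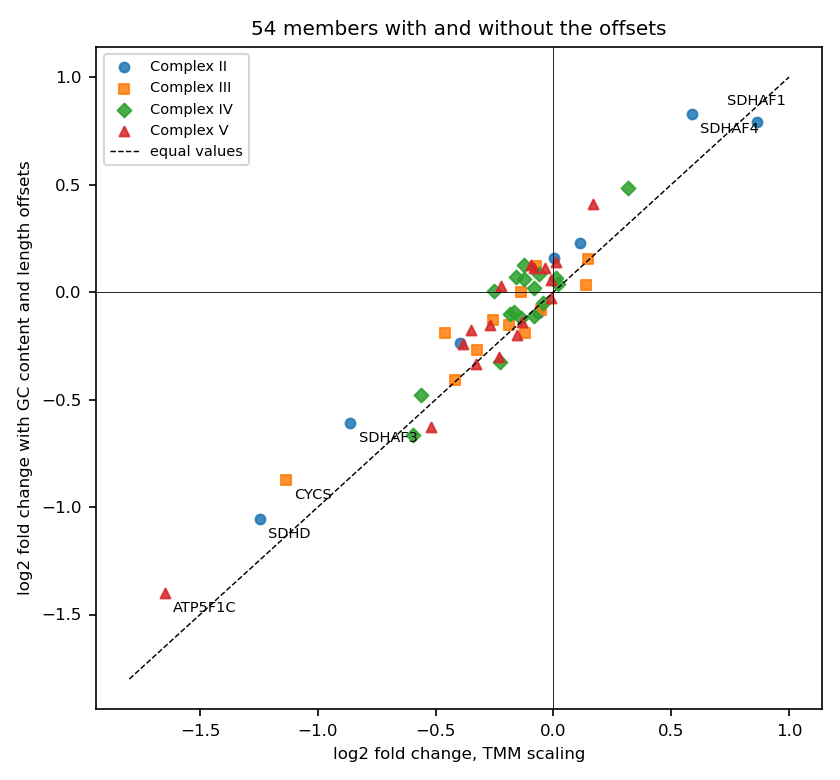
Log2 fold change of each of the 54 genes with TMM scaling (x axis) against that with GC content and length offsets (y axis), with a marker per complex and a dashed line of equal values. ATP5F1C, SDHD, CYCS and SDHAF3 are the lowest 4 on the x axis and lie below 0 on the y axis too, and 39 of the 54 genes lie above the line. The share of all genes above the line was not counted. The median over all genes in each fit was -0.008 with TMM scaling and 0.009 with the offsets.

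The mitochondrially encoded subunits of complexes III to V rose while most of their nuclear partners fell or were not called. All 6 mRNAs rose, by 0.91 to 1.24 on the log2 scale, where 34.0% of all genes tested were higher. CYTB, the cytochrome b of complex III, went from 1629, 1530.4 and 1467 CPM in shCtrl to 3096, 3395 and 3296 CPM in shMEX3A (1.08, SE 0.038, adjusted p = 2.26e-16, edgeR). In complex IV, COX1, COX2 and COX3 rose by 1.05, 1.24 and 0.91 (adjusted p = 3.53e-25, 1.13e-24 and 6.13e-07, edgeR). In complex V, ATP6 and ATP8, which overlap on a common transcript so that their reads are not fully separable, rose by 1.19 and 1.14 (adjusted p = 9.21e-20 and 2.84e-04, edgeR). For all 6 the arms did not overlap, which held for 72.3% of all genes tested. Together they summed to 9208 CPM (SD 332, n = 3) in the shCtrl arm and 19258 CPM (SD 823, n = 3) in the shMEX3A arm, a ratio of 2.09, beside the ratio of 0.906 for the 54 nuclear genes. With the mitochondrially encoded genes left out of the fit, 32 nuclear genes were still called lower and 7 higher.

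**Figure D4:**
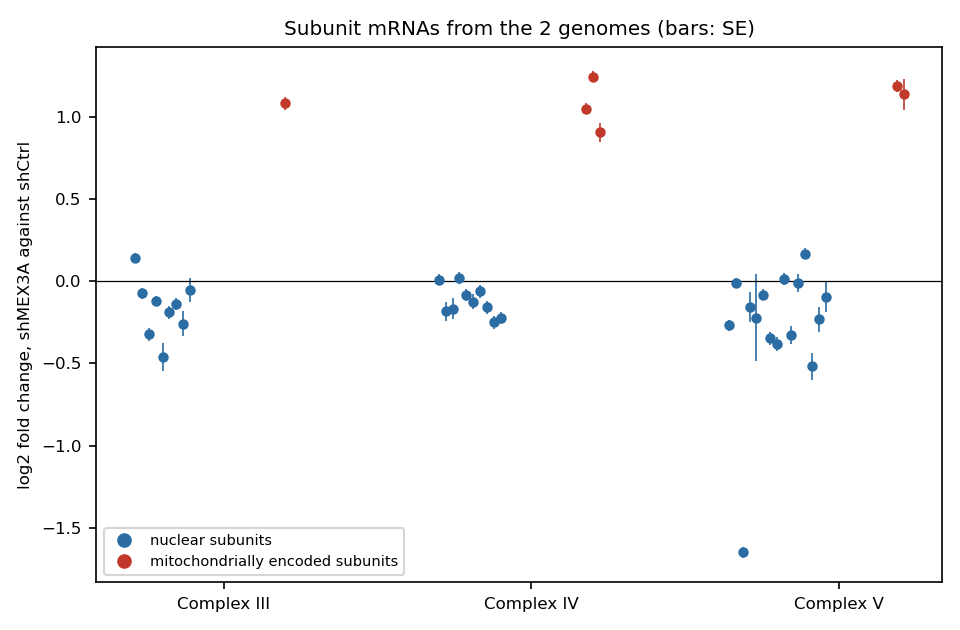
Log2 fold change of shMEX3A against shCtrl (y axis) for the nuclear subunits (blue) and the mitochondrially encoded subunits (red) of complexes III, IV and V (x axis), with standard errors from edgeR. The 6 mitochondrially encoded mRNAs lie between 0.91 and 1.24, and no nuclear subunit is above 0.17.

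A further 52 genes of complexes III to V, mostly assembly factors, translation factors and regulators, were listed, of which 44 passed the low-count filter. Of the 44, 22 fell and 8 rose, with a median log2 fold change of -0.17, where 35.6% and 34.0% of all genes tested were lower and higher. With the offsets 15 were lower and 12 higher, and the median was -0.05. COX7A2L, which joins complexes III and IV into supercomplexes, held 176, 157 and 155 CPM in shCtrl and 51.8, 55.8 and 53.5 CPM in shMEX3A. With all shMEX3A libraries far below, it fell by 1.60 (SE 0.045, adjusted p = 3.91e-18, edgeR), a size between those of ATP5F1C and SDHD. COX20, a chaperone of newly made COX2, fell by 0.72 (SE 0.046, adjusted p = 8.86e-17, edgeR). Of COX20's exon bases, 72.0% lie under exons of HNRNPU on the opposite strand. Reads of that pair cannot be told apart without the strand setting. FDXR, the reductase that feeds electrons to mitochondrial ferredoxins, rose by 0.76 (SE 0.037, adjusted p = 3.21e-20, edgeR). HIGD2A, a factor in complex IV and supercomplex assembly, rose by 0.49 (SE 0.042, adjusted p = 6.08e-13, edgeR). NOP16 on the opposite strand overlaps 34.0% of HIGD2A's exon bases, with the same limit. LYRM7, which hands the Rieske protein to BCS1L, fell by 1.11 (SE 0.080, adjusted p = 2.87e-15, edgeR), and ATP5IF1, the natural inhibitor of ATP hydrolysis by complex V, by 1.02 (SE 0.111, adjusted p = 9.32e-04, edgeR). LYRM7 and ATP5IF1 were chosen after their values were seen.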

How the data were processed

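The 54 genes and the other gene lists were chosen with earlier results of these data known. The authors deposited raw read counts per gene for 6 libraries, whole numbers that were used as deposited. The submitters' processing notes name GRCh38 and the tools STAR, fastp 0.20.0, edgeR 4.0.16 and HTSeq 2.0.4. Which annotation release and strand option HTSeq used is not given in the sources used here. Libraries totalled 34662635 to 48228216 counts. In R 4.3.3, genes were kept by edgeR 4.0.16 filterByExpr (15679 of 42656), scaled by TMM and tested with the robust quasi-likelihood test, with Benjamini-Hochberg adjustment over all tested genes and a threshold of 0.05. The common biological coefficient of variation was 3.41%. Standard errors come from the F statistic. CPM are counts per 1e+06 of TMM-scaled totals.

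Given with values in every library were, in each complex, the 4 largest called falls, every called rise and the gene with the most counts. ATP5F1A and ATP5MC1 were given in every library beside these. From the other II to V genes and the regulators, the rule was to name the 2 called genes with the smallest p in each direction. The mitochondrially encoded genes were named too. Further genes were named outside that rule: NRF1, PPARGC1A, PPARGC1B, PPRC1, LYRM7, ATP5IF1, the tissue-restricted isoforms of complex IV and the cell type markers. Gene positions, lengths, GC content and exon overlaps come from GENCODE 29, with length as the median over a gene's basic protein-coding transcripts. Alternatives were upper-quartile or DESeq2 size factors, dropping the low-count filter, requiring at least 1 CPM in 3 libraries, DESeq2 1.42.0, limma 3.58.1 voom, mitochondrially encoded genes left out, GC content and length offsets (natural splines with 5 degrees of freedom), the replicate number as a block, and each library left out. Of the readthrough rows, ATP5MF-PTCD1 had 0 counts, and SLMO2-ATP5E, which shares ATP5F1E's exons, had 1.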

Additional observations from a re-analysis of the deposited data

How the results depend on the processing

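The number of the 54 genes called lower, 32, was 30 with DESeq2 size factors, 33 with upper-quartile factors, 34 without the low-count filter, 29 with at least 1 CPM (53 genes tested), 25 with DESeq2, 32 with voom and 23 to 31 with a library left out (27 without shCtrl replicate 1). Of the 32 calls, 21 held in all 6 fits with a library left out. Genes of complex IV called lower numbered 7 with DESeq2, 5 with the GC content and length offsets, 7 with the replicate block and offsets, and 7 to 12 with a library left out, the lowest without shMEX3A replicate 2. Genes called higher numbered 14 with the offsets and 13 with the replicate block and offsets. With the offsets, called falls turned to positive values in UQCRH (0.000341), COX6C (0.063), COX7B (0.0692), COX7C (0.00487), COX11 (0.12) and ATP5PB (0.11), and with the replicate block and offsets in UQCRH (0.001353), COX6C (0.063), COX7B (0.0673), COX7C (0.0067), COX11 (0.12) and ATP5PB (0.11); the cause was not tested. Same-numbered libraries deviated from their group means with correlations of -0.173, 0.0132 and -0.153. The largest correlation, 0.241, was between shCtrl replicate 3 and shMEX3A replicate 1. Deviations within an arm of 3 libraries are not independent, so these values cannot settle whether the replicate numbers pair the libraries. The replicate block gave 30 lower and 7 higher, with SDHA and COX6B1 losing their calls (adjusted p 0.0811 and 0.0704, edgeR), and 10751 calls over all genes. Beside the 6 counts above that moved by over 1.5 times, 1131 values were recomputed, of which 1037 kept their side of the threshold and, where called, their direction, 62 lost a call, 20 gained 1 and 12 called values changed sign. Among genes not called, 36 values in 13 genes also changed sign. MEX3A stayed between -1.77 and -1.68 with a library left out. ATP5F1E had the fewest counts, 204 in all.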

Other observations

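Tissue-restricted isoforms of complex IV subunits were nearly silent in both arms. COX6A2, COX7A1, COX7B2 and COX8C, isoforms known from muscle, heart or testis, had 0 counts in every library, which allows at most 3 counts, or 0.0637 to 0.0885 CPM, in a library. COX4I2, the isoform of COX4I1 known from lung, was at 0.0499 CPM or less and COX6B2, known from testis, at 0.106 CPM or less. These genes were not tested. The widely expressed partners COX4I1 and COX6A1 were at 399 ± 22.2 and 204 ± 12.7 CPM in shCtrl (SD, n = 3 each).

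Among the shCtrl libraries, replicate 2 was the lowest for 30 of the 54 genes (55.6%), against 32.5% of all genes tested. The summed level of the 54 mRNAs was 7283, 6875 and 7047 CPM in shCtrl replicates 1 to 3. In shMEX3A the same sums were 6434, 6361 and 6421 CPM, so the spread was wider in shCtrl (SD 205 against 39.0 CPM).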
